A study of Mus musculus with 16 samples.

Results

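The immediate early transcription factors Fos, Fosb, Fosl1, Jun, Junb, Egr1, Egr2, Ier2, Nr4a1 and Myc were followed across MC38 tumours of 4 groups. The genes were taken by their symbols, and all 10 were found once among the 18480 entries of each library. All 10 also passed the filter of at least 1 FPKM (fragments counted per transcript length and per library total) in at least 4 libraries, as did 11868 entries in all.

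MC38 is a colon carcinoma line of the mouse. It was grown under the skin, and RNA of the grafts was sequenced in 16 libraries, 4 in each group. The groups were exercise with anti-PDL1, anti-PDL1 alone, exercise alone, and control. Exercise is given in the labels without its form or length, and anti-PDL1, by its name, is an antibody against the checkpoint ligand PD-L1. The title of the study speaks of blockade of PD-1, the receptor of that ligand, so which of them the antibody bound is not settled by the sources used here, and the groups are named as in the sample labels. The sources used here give neither strain, sex nor age, and do not say that each library is another mouse, so each p-value speaks of the spread among these libraries, which may be technical. The graft is a mixed tissue, and a lower share of a cell type and less RNA per cell cannot be told apart in it. Of 6 markers of epithelial cells, Epcam, Krt8, Krt18 and Krt7 lay under 0.5 FPKM in every library, and Krt19 and Cdh1 passed the filter. All 10 macrophage markers passed the filter too. The share of tumour cells in the grafts was not estimated.

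Immediate early genes are switched on within minutes of a growth factor, cytokine or stress signal, without new protein synthesis, by factors already present in the cell. Signals through the MAP kinases reach the serum response factor and its ETS partners at the serum response element, and signals through cyclic AMP or calcium reach CREB at the cyclic AMP response element (CRE). Many products of immediate early genes are themselves transcription factors, and most of the mRNAs decay fast. The level of these mRNAs in a dissected tumour depends on signals up to the moment of freezing or lysis. In colon carcinoma, Myc and the Fos and Jun proteins are known as drivers of growth and invasion.

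Sequence upstream of the transcription start was available for 6 of the 10 genes, namely Fos, Fosb, Jun, Junb, Egr2 and Nr4a1, from RefSeq on GRCm38.p6. The 250 bases before the start are shown for Fos and Fosb, the pair of the 10 with the highest Pearson correlation over all 16 libraries, and for Junb and Egr2, which had their highest Pearson correlations with other genes of the 10 than Fos or Fosb. The windows are chr12:85473640-85473889 on the plus strand, chr7:19310046-19310295 and chr8:84978749-84978998 on the minus strand, and chr10:67537316-67537565 on the plus strand, the second of 5 Egr2 start sites listed, chosen after the sequences were seen because it holds a serum response element. Capitals mark matches on either strand to the serum response element (CArG box), the CRE TGACGTCA, its core TGACG, the AP-1 site TGANTCA, the EGR site GCGNGGGCG and the TATA box TATAAA. The core is contained in the full CRE, and no other motifs of the set overlapped in these windows.
Fos: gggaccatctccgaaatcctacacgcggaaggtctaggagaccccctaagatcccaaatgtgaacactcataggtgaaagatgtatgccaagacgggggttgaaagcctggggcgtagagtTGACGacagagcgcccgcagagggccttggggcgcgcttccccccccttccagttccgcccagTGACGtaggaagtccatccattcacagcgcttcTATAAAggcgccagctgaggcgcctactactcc
Fosb: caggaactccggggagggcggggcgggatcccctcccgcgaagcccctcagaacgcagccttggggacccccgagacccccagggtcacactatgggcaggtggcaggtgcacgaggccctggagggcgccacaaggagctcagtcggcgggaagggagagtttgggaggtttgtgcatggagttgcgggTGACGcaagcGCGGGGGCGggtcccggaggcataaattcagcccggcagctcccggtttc
Junb: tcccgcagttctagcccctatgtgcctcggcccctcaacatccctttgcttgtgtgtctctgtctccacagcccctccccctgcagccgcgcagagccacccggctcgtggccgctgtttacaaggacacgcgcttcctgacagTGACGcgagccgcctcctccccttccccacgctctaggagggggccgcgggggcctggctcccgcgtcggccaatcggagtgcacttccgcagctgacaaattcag
Egr2: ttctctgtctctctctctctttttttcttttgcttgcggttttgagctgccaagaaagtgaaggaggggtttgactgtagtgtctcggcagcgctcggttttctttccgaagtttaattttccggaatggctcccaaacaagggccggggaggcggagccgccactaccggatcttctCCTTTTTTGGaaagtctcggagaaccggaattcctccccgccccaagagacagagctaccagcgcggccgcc

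Fos held a TATA box from base -33 to -28 and the CRE core at -66 to -62 and at -129 to -125. The TATA box was found in 12.4% and the CRE core in 17.8% of 32851 windows of this length before all RefSeq starts. Fosb held the CRE core at -60 to -56 and an EGR site at -50 to -42, a motif found in 4.7% of windows. The Fosb gene is listed by RefSeq from 19302696 to 19310118. The part of its window nearest the start, with both matches, therefore lies inside the gene and not upstream of it. Junb held the CRE core at -106 to -102, and Egr2 a serum response element at -72 to -63, which occurs in 1.47% of windows. The Egr2 window, before an inner start site, lies wholly inside the gene as listed, from 67534469 to 67542188. The full CRE and the AP-1 site, in 1.55% and 6.75% of windows, were not found in the 4 sequences shown. Of the other Egr2 start sites, site 1 held none of the motifs, and sites 3, 4 and 5 held a serum response element and the CRE core at 2 places each. The matches of sites 3, 4 and 5 had the same spacing, so they may be the same elements counted from neighbouring starts. In the windows not shown, Jun held none of the motifs, and Nr4a1 held an EGR site at -60 to -52 and the CRE core at 4 places. A match is a stretch of letters and not evidence of binding in these tumours.

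The 10 genes differed widely in level. Mean FPKM over the 16 libraries was 153 for Fosl1, 119 for Myc, 98.5 for Jun and 76.3 for Junb, and these 4 genes made up 79.6% to 87.5% of the summed FPKM of the 10 in every library. Ier2 averaged 43.8 FPKM, Egr1 20.2, Nr4a1 8.73, Fos 6.29, Fosb 2.18 and Egr2 1.83. Fosl1, which encodes the Fos family protein FRA-1, thus exceeded Fos itself in FPKM in all libraries. Of all tested genes 96.6% had a mean at or below that of Fosl1 and 29.9% at or below that of Fos. FPKM is scaled to transcript length, so these levels can be compared between genes.

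The genes also differed in how far libraries of the same group lay apart. The SD within groups of log2(FPKM + 1) was 0.81 for Fos, 0.67 for Egr1 and 0.40 for Fosb, against a median of 0.18 over all tested genes, and was 0.36 for Junb and between 0.18 and 0.30 for the other members. Fos spanned a 12.5-fold range over the 16 libraries and Egr1 a 6.07-fold range, but Myc spanned 1.82-fold and Ier2 1.67-fold. Of the sum of squares of each gene on the log2 scale, 84.2% for Fos, 92.8% for Egr2 and 93.1% for Nr4a1 lay within groups, and 51.9% for Fosl1 and 48.9% for Myc, where the median over tested genes was 69.6%.

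**Figure D1:**
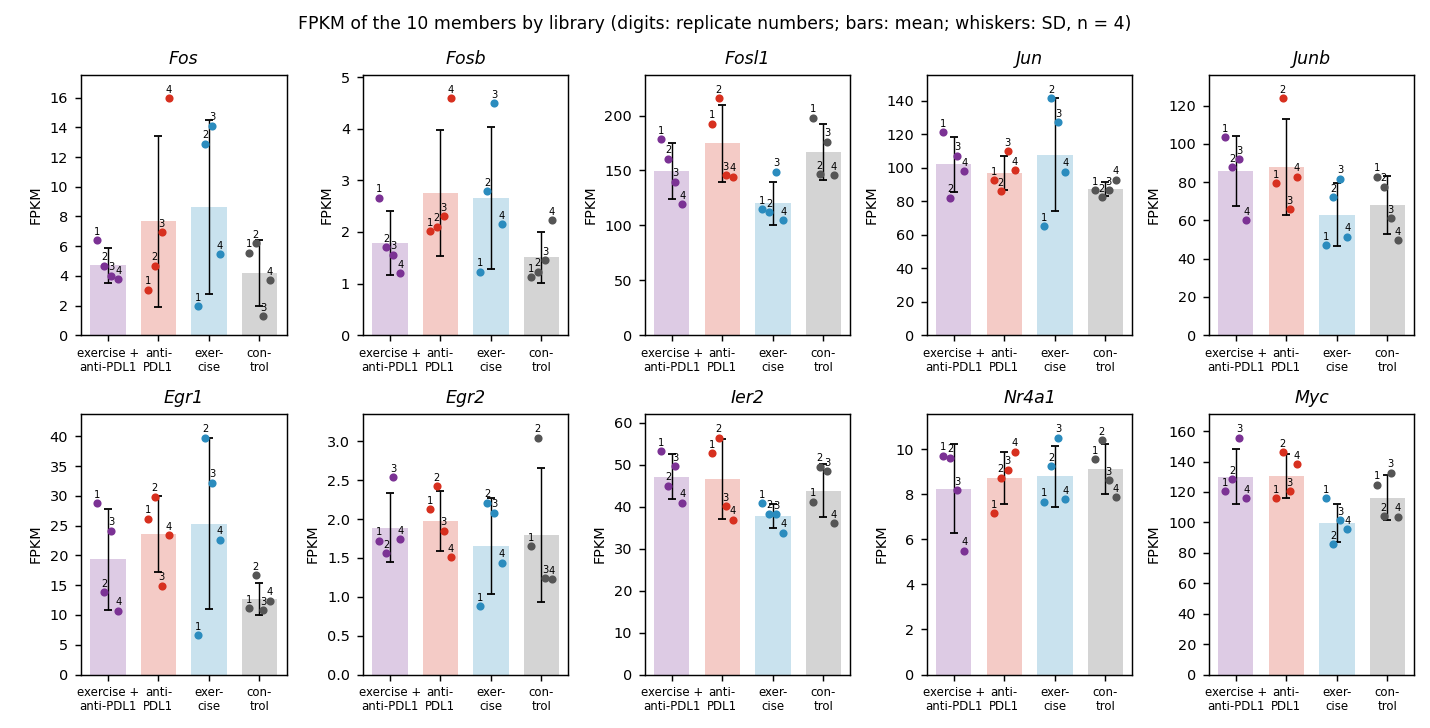
FPKM (vertical axes, linear from 0) of each of the 10 genes in each library, by group from left to right exercise with anti-PDL1, anti-PDL1, exercise and control. Points are libraries with their replicate number, bars are means and whiskers SD (n = 4 each); Fos in anti-PDL1 library 4 and exercise libraries 2 and 3, at 15.96, 12.89 and 14.12 FPKM, lies above all other libraries.

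The Fos family provides partners for Jun proteins in the dimeric factor AP-1, and Fos and Fosb are classic rapid responders. Fos measured 6.38, 4.67, 4.02 and 3.78 FPKM in exercise with anti-PDL1 libraries 1 to 4, 3.08, 4.68, 6.95 and 15.96 FPKM in anti-PDL1 libraries, 1.96, 12.89, 14.12 and 5.47 FPKM in exercise libraries, and 5.56, 6.2, 1.28 and 3.69 FPKM in controls. The high values were spread over the anti-PDL1 and exercise groups, each of which also held a library at 3.08 FPKM or lower, and every pair of groups overlapped. Fos averaged 7.67 ± 5.75 FPKM in anti-PDL1 and 8.61 ± 5.85 FPKM in exercise tumours, against 4.18 ± 2.21 FPKM in controls (SD, n = 4 each), and 4.71 ± 1.17 FPKM in exercise with anti-PDL1. Fosb, a close relative of Fos, measured 2.66, 1.71, 1.56 and 1.2 FPKM in exercise with anti-PDL1, 2.02, 2.1, 2.31 and 4.59 FPKM in anti-PDL1, 1.23, 2.79, 4.49 and 2.15 FPKM in exercise, and 1.12, 1.23, 1.45 and 2.23 FPKM in control libraries. Its highest libraries were anti-PDL1 4 and exercise 3, which were also the highest for Fos.

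Fosl1 followed another course. It measured 178.18, 160.7, 139.64 and 119.44 FPKM in exercise with anti-PDL1 libraries, 192.57, 215.72, 145.45 and 144.38 FPKM in anti-PDL1 libraries, 114.7, 111.73, 149.01 and 104.86 FPKM in exercise libraries, and 198.04, 146.73, 176.33 and 145.46 FPKM in controls. In the exercise group 3 of the 4 libraries lay below all controls, and exercise 3 lay among them. The log2 fold change of exercise against control was -0.47 with a standard error of 0.16 (95% interval -0.81 to -0.13), and the adjusted p was 0.188 in limma with Benjamini-Hochberg adjustment over 11868 genes.

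Jun and Junb encode the Jun side of AP-1, Jun as a strong activator and Junb as a weaker activator that can restrain it. Jun measured 121.31, 82.07, 107.23 and 97.89 FPKM in exercise with anti-PDL1, 92.67, 86.11, 110.03 and 98.44 FPKM in anti-PDL1, 65.07, 141.52, 127.1 and 97.73 FPKM in exercise, and 86.6, 82.56, 86.48 and 92.89 FPKM in control libraries. Exercise libraries held both the lowest and the highest Jun value of the study, and the controls lay close together at 87.1 ± 4.27 FPKM. Junb measured 103.65, 87.77, 91.99 and 60.21 FPKM in exercise with anti-PDL1, 79.54, 123.93, 65.95 and 82.95 FPKM in anti-PDL1, 47.07, 72.13, 81.79 and 51.5 FPKM in exercise, and 82.88, 77.68, 61.26 and 49.81 FPKM in control libraries. Of the 5 pairs of groups compared, none was free of overlap for either gene.

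Egr1 and Egr2 encode zinc finger factors that bind GC-rich sites. Egr1 measured 28.75, 13.78, 24.13 and 10.69 FPKM in exercise with anti-PDL1 libraries, 26.17, 29.85, 14.92 and 23.36 FPKM in anti-PDL1 libraries, 6.56, 39.79, 32.2 and 22.67 FPKM in exercise libraries, and 11.1, 16.66, 10.82 and 12.42 FPKM in controls. In 3 of 4 anti-PDL1 libraries and 3 of 4 exercise libraries Egr1 exceeded every control, but anti-PDL1 3 lay among the controls and exercise 1 below them all. Egr1 averaged 23.6 ± 6.35 FPKM in anti-PDL1 and 25.3 ± 14.3 FPKM in exercise tumours, against 12.8 ± 2.7 FPKM in controls (SD, n = 4 each). Egr2, which was close to the filter, ranged from 0.88 FPKM in exercise 1 to 3.05 FPKM in control 2, with group means between 1.65 FPKM in exercise and 1.98 FPKM in anti-PDL1 tumours.

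Ier2, a small nuclear protein of the immediate early class, Nr4a1, an orphan nuclear receptor induced by antigen receptor and growth signals, and Myc, the growth regulator, varied least. Ier2 measured 53.14, 45.01, 49.58 and 40.95 FPKM in exercise with anti-PDL1, 52.73, 56.46, 40.06 and 36.93 FPKM in anti-PDL1, 40.86, 38.33, 38.22 and 33.77 FPKM in exercise, and 41.22, 49.51, 48.38 and 36.1 FPKM in control libraries. Each exercise with anti-PDL1 library exceeded each exercise library, though the closest pair, at 40.95 and 40.86 FPKM, lay almost level. Nr4a1 ranged from 5.5 FPKM in exercise with anti-PDL1 library 4 to 10.52 FPKM in exercise 3, with group means between 8.26 and 9.12 FPKM. Myc measured 120.35, 128.2, 155.75 and 115.88 FPKM in exercise with anti-PDL1, 115.86, 146.25, 120.57 and 138.39 FPKM in anti-PDL1, 115.99, 85.59, 101.55 and 95.4 FPKM in exercise, and 124.73, 104.17, 132.7 and 103.62 FPKM in control libraries. Exercise 1, the highest Myc library of its group, lay just above the lowest libraries of both antibody groups.

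Whether the 10 genes differed between the groups was tested in a limma model over all 11868 genes and 16 libraries. None of the 10 passed an adjusted p of 0.05 in limma in any of the 5 pairwise comparisons, in the interaction of exercise and antibody, or in the test for any difference among the 4 groups. In that last test 0.135% of all genes passed, and the smallest adjusted p of the 10 in limma were 0.188 for Myc and 0.193 for Fosl1. Both had an unadjusted p under 0.05, 2 of the 10, where 20.8% of all genes did. The intervals remained wide for the genes that varied most, so that a change of 1 on the log2 scale lies inside the 95% interval of Fos and Egr1 in all 3 comparisons with control.

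**Figure D2:**
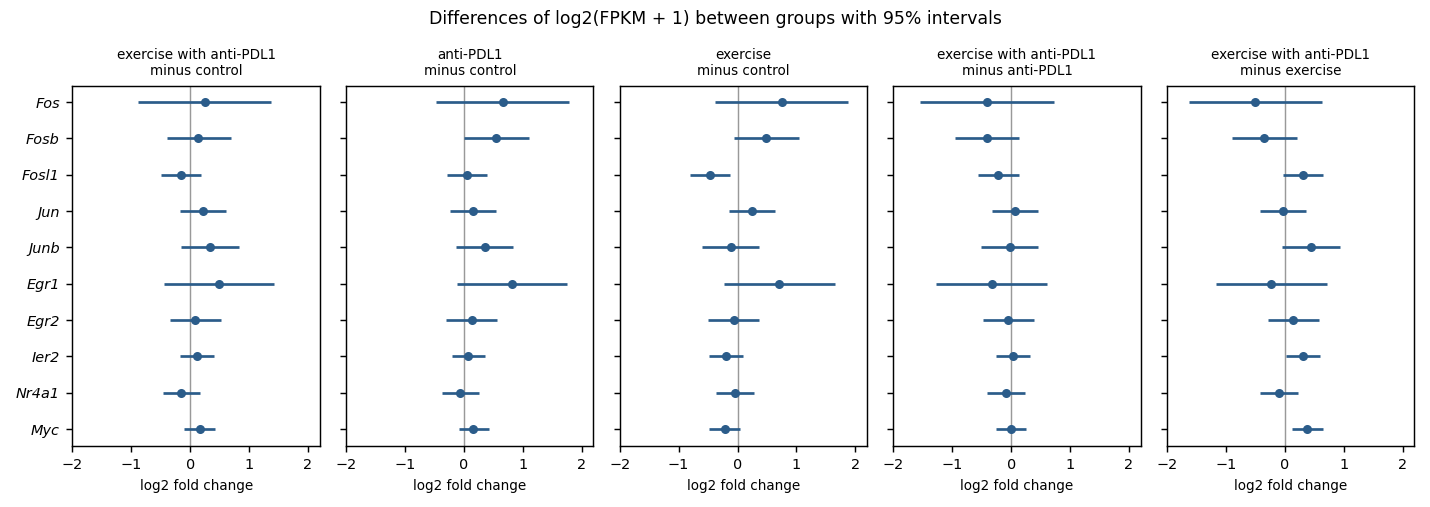
Log2 fold change on the log2(FPKM + 1) scale (horizontal axes) of the 10 genes in the 5 pairwise comparisons, as points with 95% intervals. The intervals of Fos and Egr1 are the widest, and that of Fosl1 in exercise minus control runs from -0.81 to -0.13.

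For exercise with anti-PDL1 against control, 0 of the 10 genes passed in limma, where 0% of all genes passed, and 0 of the 10 had an unadjusted p under 0.05, where 8.2% of all genes did. No member had libraries free of overlap, where 3.83% of all genes had. The log2 fold changes ran from -0.16 for Fosl1 to 0.48 for Egr1, with a median of 0.15, beside -0.03 over all tested genes. Egr1 had an interval of -0.45 to 1.42, Junb a log2 fold change of 0.34 with an interval of -0.15 to 0.82, and Myc one of 0.16 with an interval of -0.10 to 0.42. Leaving out control 3 turned the sign of Fos, at -0.10 against 0.25 with all libraries.

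For anti-PDL1 against control, 0 of the 10 genes passed in limma, where 0.253% of all genes passed, and 1 of the 10, Fosb, had an unadjusted p under 0.05, where 23.5% of all genes did. No member had libraries free of overlap, where 10.8% of all genes had. The largest values were 0.82 ± 0.44 for Egr1 (log2 fold change ± standard error), 0.66 ± 0.53 for Fos and 0.55 ± 0.26 for Fosb, with adjusted p of 0.272, 0.465 and 0.21 in limma. Of the 10 genes 9 were above 0, and their median was 0.16, beside -0.04 over all tested genes. Without anti-PDL1 library 4 the log2 fold change was 0.26 for Fos and 0.34 for Fosb. That library also held 4071 summed FPKM of 5 red cell genes, where the other 15 libraries held 68.8 to 792. The sum of 12 hypoxia genes ran from 1975 to 3460 FPKM in anti-PDL1 and from 1758 to 1898 FPKM in control tumours, with the highest value in anti-PDL1 4, and all 12 had a log2 fold change above 0. The part of either list in the Fos and Fosb values was not tested.

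For exercise against control, 0 of the 10 genes passed in limma, where 0% of all genes passed. An unadjusted p under 0.05 was found for 1 of the 10, Fosl1, and for 18% of all genes. No member had libraries free of overlap, where 7.72% of all genes had. Fos had a log2 fold change of 0.75 ± 0.53, Egr1 of 0.71 ± 0.44 and Fosb of 0.49 ± 0.26, and Myc had one of -0.22 ± 0.12. The median of the 10 was -0.05, beside -0.02 over all tested genes. Single libraries moved these values both ways. Without exercise 2 Egr1 was at 0.42, without exercise 3 Fosb was at 0.27 and Fos at 0.44, and without control 3 Fos was at 0.40. Whether Egr1 passed turned on exercise library 1: without it the log2 fold change of Egr1 was 1.23 (adjusted p of 0.041, limma), 1 of the 10 genes passed, and 5.15% of all genes did. In the same fit Fos was at 1.22, Fosb at 0.71, Jun at 0.47 and Fosl1 at -0.45, with adjusted p between 0.06 and 0.139 in limma. With library weights, which count deviating libraries less, Fosb, Egr1 and Fosl1 passed at 0.78, 1.06 and -0.48, with adjusted p of 0.0263, 0.0491 and 0.0402 in limma, where 19.2% of all genes passed.

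Exercise 1 was the lowest library of the study for Jun, Junb, Egr1 and Egr2. It also held the lowest sums of 12 hypoxia genes, at 1326 FPKM, where the other exercise libraries held 1930, 2542 and 1708, and of the listed immediate early genes outside the 10, at 838 FPKM, where they held 1165, 1299 and 1053. The part of these in the values of exercise 1 was not tested. Its neutrophil marker sum of 3.62 FPKM was the lowest of all libraries as well, and its macrophage marker sum of 832 FPKM lay inside the 555 to 997 FPKM of the exercise group.

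**Figure D3:**
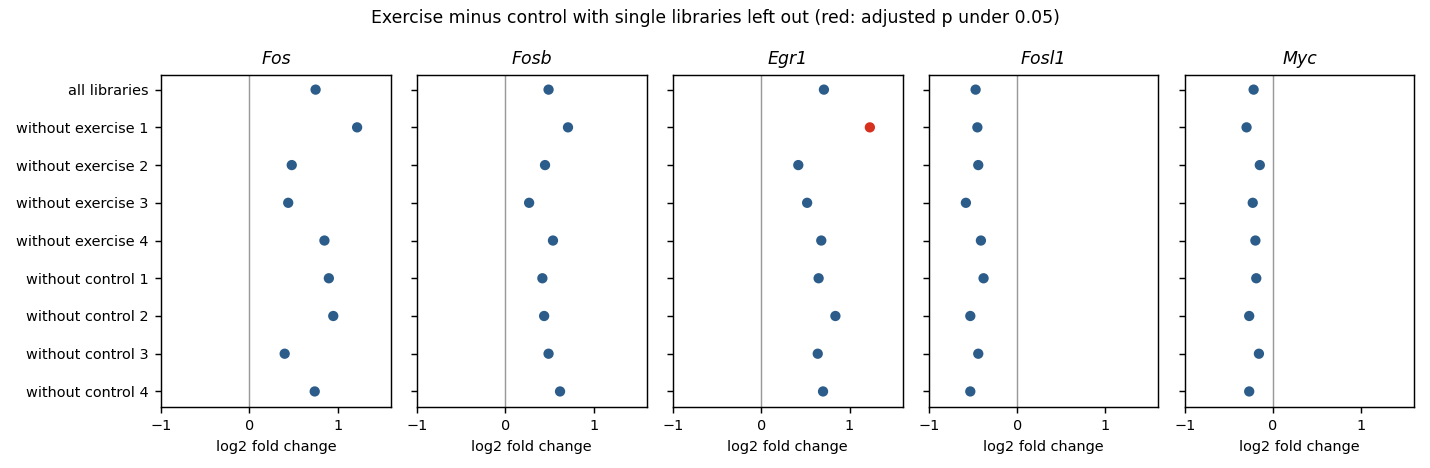
Log2 fold change of exercise minus control (horizontal axes) for Fos, Fosb, Egr1, Fosl1 and Myc with all libraries and with each exercise or control library left out (rows). Egr1 passes an adjusted p of 0.05 in limma (red) only in the row without exercise 1, at 1.23.

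Adding exercise to the antibody was examined by exercise with anti-PDL1 against anti-PDL1. Here 0 of the 10 genes passed in limma, where 0% of all genes passed, and 0 of the 10 had an unadjusted p under 0.05, where 3.94% of all genes did. No member had libraries free of overlap, where 2.24% of all genes had. Fos and Fosb were each at -0.41, with intervals of -1.54 to 0.72 and -0.96 to 0.14, and Egr1 was at -0.33 with an interval of -1.27 to 0.60. Myc was at -0.01 with an interval of -0.26 to 0.25, the narrowest of the 10. This comparison shares the anti-PDL1 libraries with the one against control.

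Adding the antibody to exercise was examined by exercise with anti-PDL1 against exercise. With limma 0 of the 10 genes passed, where 0% of all genes passed, and 2 of the 10, Myc and Ier2, had an unadjusted p under 0.05, where 13.6% of all genes did. Myc averaged 130 ± 17.9 FPKM in exercise with anti-PDL1 and 99.6 ± 12.7 FPKM in exercise tumours (SD, n = 4 each). Its log2 fold change was 0.38 ± 0.12 with an interval of 0.12 to 0.64 and an adjusted p of 0.22 in limma. Ier2 averaged 47.2 ± 5.32 FPKM in exercise with anti-PDL1 and 37.8 ± 2.95 FPKM in exercise tumours, at 0.31 ± 0.14 with an adjusted p of 0.334 in limma. Ier2 was the only member whose libraries did not overlap in any of the 5 pairwise comparisons, and in this comparison 6.94% of all genes did not overlap. Junb was at 0.45 ± 0.23 and Fosl1 at 0.31 ± 0.16.

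The interaction asks whether the difference made by exercise was the same with and without the antibody. It was -1.16 ± 0.74 for Fos, -1.04 ± 0.62 for Egr1 and -0.90 ± 0.37 for Fosb on the log2 scale, with adjusted p of 0.466, 0.441 and 0.366 in limma, and lay between -0.18 and 0.25 for the other 7 genes. With limma 0 of the 10 passed, where 0% of all genes passed, and 1 of the 10, Fosb, had an unadjusted p under 0.05, where 13.1% of all genes did.

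The 10 genes did not vary as a single block over the libraries. Of 45 pairs, 11 had a positive Pearson correlation of log2(FPKM + 1) with a permutation p that stayed under 0.05 after adjustment over the 45 pairs, and 0 had a negative one. Fos and Fosb had a Pearson r of 0.76 (adjusted permutation p of 0.0205, n = 16) and a Spearman rho of 0.64 (adjusted permutation p of 0.077), and r was 0.70 without the 2 libraries farthest from the median of Fos. Jun and Egr1 had an r of 0.74 (adjusted permutation p of 0.0205, n = 16) and a rho of 0.58 (adjusted permutation p of 0.0818), and r was 0.52 without the 2 farthest libraries. Deviations from the group means, pooled over all groups, gave 0.72 for Fos and Fosb and 0.74 for Jun and Egr1. The relations did not hold in each single group. Fos and Fosb ranked the libraries alike in every group but the controls. Jun and Egr1 ranked them alike in exercise and in reverse order in anti-PDL1. By rank, only Fos and Nr4a1 were under 0.05, with a rho of 0.76 and an adjusted permutation p of 0.0355. This pair was not among the 11, with a Pearson r of 0.55 and an adjusted permutation p of 0.0922. No pair therefore passed by both measures.

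Fosl1, Ier2 and Junb were related among themselves, with a Pearson r of 0.69 for Fosl1 and Ier2, 0.67 for Fosl1 and Junb and 0.66 for Junb and Ier2, each with an adjusted permutation p of 0.0336 (n = 16). Their Spearman rho was 0.65, 0.58 and 0.61, with adjusted permutation p of 0.077, 0.0818 and 0.0818, and r without the 2 farthest libraries was 0.50, 0.48 and 0.60. Egr2 was related to genes of both kinds, with an r of 0.63 with Egr1 and 0.64 with Junb (adjusted permutation p of 0.0401 and 0.0375). The rho of these pairs was 0.62 and 0.52 (adjusted permutation p of 0.0818 and 0.122). Egr1 and Junb had an r of 0.60 (adjusted permutation p of 0.0588). Junb and Ier2 lie on chromosome 8 (GRCm38.p6, RefSeq, 84976909 to 84978748 and 84661331 to 84662852), and Fosl1 on chromosome 19. Myc and Nr4a1 also share a chromosome, 15, and had an r of -0.00 (adjusted permutation p of 0.996). The part of position in these correlations was not tested. Of the 8 pairs of Fos, Fosb, Jun or Egr1 with Ier2 or Myc none passed. Their r ran from -0.38 for Fos and Ier2 to 0.16 for Egr1 and Ier2, with rho of -0.29 and 0.16, adjusted permutation p of 0.301 and 0.65 for r, and of 0.463 and 0.684 for rho (n = 16). Fos and Fosl1, though of the same family, had an r of -0.16 and a rho of -0.09, with adjusted permutation p of 0.65 and 0.822 (n = 16). All libraries share the scaling of FPKM to their own total, which links genes of a library.

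**Figure D4:**
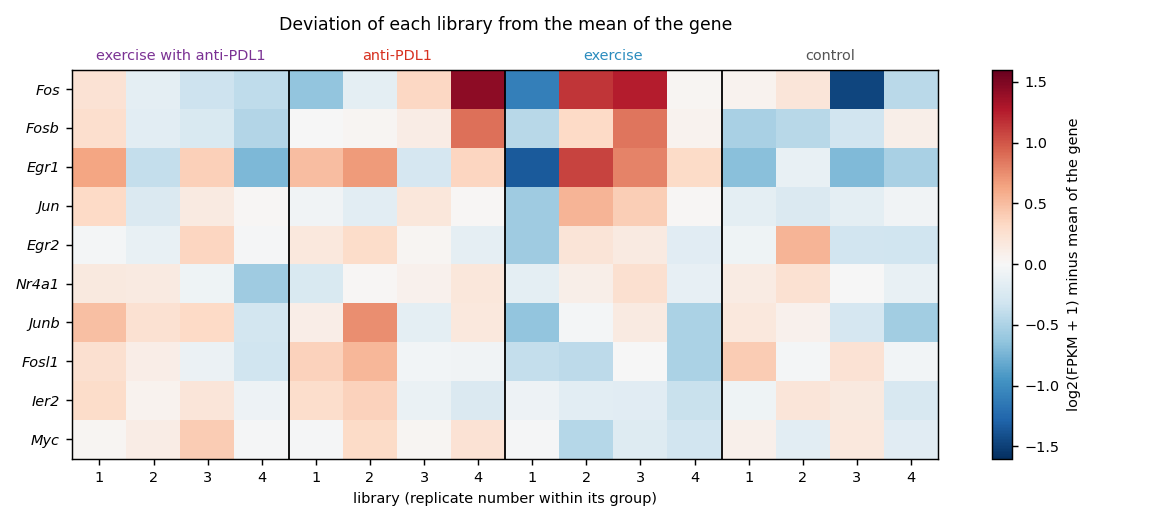
Log2(FPKM + 1) of each gene minus its mean over the 16 libraries (colour), with libraries in columns by group and replicate and genes in rows. Fos, Egr1 and Fosb are high together in exercise 2 and 3 and low together in exercise 1. Myc and Ier2 lie below their mean in every exercise library, Myc only slightly in exercise 1.

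**Figure D5:**
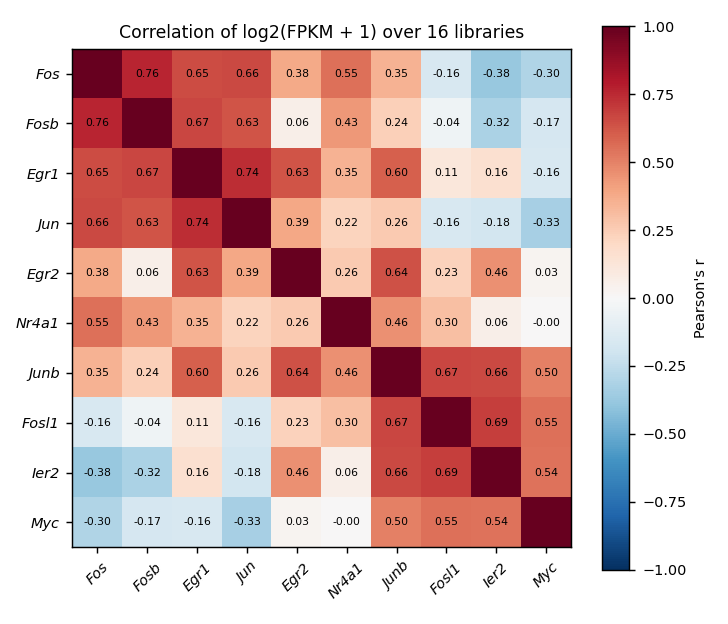
Pearson's r of log2(FPKM + 1) over the 16 libraries for each of the 45 pairs of genes. Fos, Fosb, Egr1 and Jun form a block with r between 0.63 and 0.76, and Fosl1, Junb and Ier2 another with r between 0.66 and 0.69. The blocks are not separate: Egr2 had an r of 0.63 with Egr1 and 0.64 with Junb, and Egr1 and Junb had 0.60.

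Among the tested genes outside the 10, those whose log2(FPKM + 1) over the 16 libraries was most like the mean of the standardised members were Ier3, Car9, Slc2a1, Phlda1 and Slc15a4. Their Pearson r with that mean was 0.87, 0.86, 0.84, 0.83 and 0.82 (n = 16 libraries, given as a description). Ier3 encodes a stress-inducible survival protein, Car9 carbonic anhydrase 9 and Slc2a1 the glucose transporter GLUT1. Ier3 ranged from 10.9 to 78.2 FPKM, Car9 from 3.94 to 38.1 FPKM and Slc2a1 from 41 to 223 FPKM.

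Relatives of the 10 genes were examined from lists chosen with earlier results of these data known. Of 6 other Fos, Jun, Egr and Nr4a genes 4 were tested, and 0 of them passed in limma in any comparison. Fosl2, which encodes FRA-2, measured 19.4 ± 1.96 FPKM in anti-PDL1 and 12.8 ± 0.723 FPKM in control tumours (SD, n = 4 each), and each anti-PDL1 library lay above each control. Its log2 fold change was 0.56 ± 0.13 with an adjusted p of 0.0587 in limma, and libraries did not overlap for 10.8% of all genes in that comparison. Jund, the third Jun gene, measured 109 ± 29.2 FPKM in anti-PDL1 and 67.6 ± 18 FPKM in control tumours, at 0.67 ± 0.26 with an adjusted p of 0.15 in limma.

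Of 28 symbols listed for other immediate early genes 26 were tested, and 0 passed in limma in any comparison. For anti-PDL1 against control 8 of the 26 had an unadjusted p under 0.05, all higher, and the median of the 26 was 0.33. Of the 11868 tested genes 922 had such a p and were higher, and 23.5% had one in either direction. Dusp1, a phosphatase that switches MAP kinases off, measured 42.9 ± 14.6 FPKM in anti-PDL1 and 18.4 ± 5.94 FPKM in control tumours, at 1.17 ± 0.38 with an adjusted p of 0.109 in limma. Cyr61, a secreted matrix protein, measured 75.5 ± 35 FPKM in anti-PDL1 and 36.8 ± 5.02 FPKM in control tumours, at 0.92 ± 0.32 with an adjusted p of 0.121 in limma. In exercise with anti-PDL1 against control, Sgk1, a kinase induced by serum and glucocorticoids, was at -0.58 ± 0.19 and Klf2, a zinc finger factor, at 0.41 ± 0.14, and the adjusted p in limma was 0.572 for both. Sgk1 measured 36 ± 10.9 FPKM in exercise with anti-PDL1 and 53.3 ± 9.8 FPKM in control tumours.

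Upstream factors and feedback genes of the ERK pathway included 18 tested genes, of which 0 passed in limma. Etv4 and Etv5, ETS factors whose levels follow ERK signalling, had log2 fold changes of -0.70 ± 0.17 and -0.61 ± 0.16 in anti-PDL1 against control, with adjusted p of 0.0671 and 0.0762 in limma. Etv4 measured 27.8 ± 4.56 FPKM in anti-PDL1 and 46 ± 8.47 FPKM in control tumours, and each anti-PDL1 library lay below each control for both genes, where 10.8% of all genes had libraries free of overlap. Elk4, a partner of the serum response factor, measured 6.94 ± 1.49 FPKM in exercise and 4.47 ± 0.502 FPKM in control tumours, at 0.52 ± 0.13 with an adjusted p of 0.181 in limma. Nab2, a corepressor that binds EGR proteins, measured 25.7 ± 2.81 FPKM in exercise and 20.1 ± 3.1 FPKM in control tumours (adjusted p of 0.214, limma), and each exercise library lay above each control, where 7.72% of all genes had libraries free of overlap.

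Of 11 tested dimer partners of AP-1 and Myc, 0 passed in limma. Mxd4, which competes with Myc for its partner Max, measured 25.2 ± 4.51 FPKM in exercise and 15.9 ± 3.75 FPKM in control tumours, at 0.64 ± 0.17 with an adjusted p of 0.181 in limma. Among 16 targets of Myc 0 passed in limma. Against control, 15 of them lay below 0 in exercise with anti-PDL1 with a median of -0.16, 14 in anti-PDL1 with a median of -0.32, and 15 in exercise with a median of -0.19. Of the 11868 tested genes 6897, 6844 and 6386 lay below 0 in these comparisons, with medians of -0.03, -0.04 and -0.02. Myc itself was at 0.16, 0.16 and -0.22, and the 3 comparisons share the controls. Npm1, the nucleolar protein nucleophosmin, measured 837 ± 317 FPKM in exercise and 1375 ± 164 FPKM in control tumours, at -0.78 ± 0.23 with an adjusted p of 0.181 in limma. Among 11 tested targets of AP-1 0 passed in limma, and in anti-PDL1 against control 6 lay below 0 with a median of -0.21. Mmp3, the matrix protease stromelysin, measured 1.08 ± 1.19 FPKM in anti-PDL1 and 14.4 ± 13.3 FPKM in control tumours, at -2.41 ± 0.79 with an adjusted p of 0.112 in limma. Mmp9, a gelatinase, was at -1.37 ± 0.51 with an adjusted p of 0.138 in limma. Mmp13, a collagenase, measured 25.6 ± 11.4 FPKM in anti-PDL1 and 9.27 ± 5.06 FPKM in control tumours, at 1.43 ± 0.48 with an adjusted p of 0.117 in limma.

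Over all lists, markers of other cell types included, 1 gene passed in limma. Nkg7, a granule protein of NK and T cells, rose in anti-PDL1 tumours, where it measured 4 ± 2.14 FPKM, against 1.01 ± 0.404 FPKM in controls (SD, n = 4 each), with a log2 fold change of 1.26 and an adjusted p of 0.0436 in limma. In that comparison 0.253% of all genes passed. Of 6 NK cell markers listed only 3 reached the filter, Nkg7 among them, and all 3 lay above 0. The rest were too low to be tested. In the same comparison 9 of 10 macrophage markers lay below 0 with a median of -1.18, and their summed level ran from 365 to 762 FPKM in anti-PDL1 and from 467 to 1897 FPKM in control tumours. Their part in the values of the 10 genes was not tested.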

How the data were processed

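RNA behind the 16 libraries was extracted with Trizol, per the labels' protocols. The authors deposited FPKM values with 2 decimals for 18480 entries per library, per the file headers. Per the submitters' processing notes HISAT, Bowtie2 and GRCm38.p6 were used, without role or version. Library kit and FPKM program: not given in the sources used here. FPKM summed to between 478672 and 529732 per library. For 1353 low genes, each value was divided by the lowest of its gene, and 37.2% of 19757 quotients came within 0.15 of a whole number. Whole reads were therefore not recovered, and depth stays unknown, without intervals for counting error.

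Values were taken as log2(FPKM + 1), a scale that understates changes of low genes. The filter kept genes at or above 1 FPKM in 4 or more libraries. They were fitted with limma 3.58.1 in R 4.3.3 (group as the only term, empirical Bayes with trend and robust settings) over all 16 libraries, and p-values were adjusted by Benjamini-Hochberg over 11868 genes within each contrast. The fit was tested on simulated data. Members under the filter were to be tested by exact permutation, and there were none. Correlations used 100000 permutations, two-sided. All tests were two-sided. Motifs and figures used Python 3.11.15 and matplotlib 3.10.9. The members and lists were chosen with earlier results of these data known. All members are described. From each list, genes named were among the 4 with the smallest p over the 4 groups, or the 5 genes most like the members. The epithelial markers under 0.5 FPKM in every library were named as well. Alternatives were another pseudocount, 2 other filters, plain limma settings, 2 scalings, only the groups compared, the replicate block, library weights, and leaving out libraries. No libraries held identical values.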

Additional observations from a re-analysis of the deposited data

Results flagged for a closer look

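Fosb in anti-PDL1 library 4 measured 4.59 FPKM, where the other 3 anti-PDL1 libraries measured 2.02, 2.1 and 2.31 FPKM. Its gap to the nearest of them was 0.887 of the range of the group, above Dixon's 95% critical value for 4 libraries. Of 40 sets of 4 libraries, 10 genes in 4 groups, this was the 1 flagged, and chance flags about 1 in 20. The same library was the highest of the study for Fos, at 15.96 FPKM. Without it the log2 fold change of Fosb in anti-PDL1 against control was 0.34, against 0.55 with all libraries.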

How the results depend on the processing

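Over 26 alternative fits and 60 pairs of gene and comparison, 4 of 1538 values passed an adjusted p of 0.05 in limma. All were in exercise against control: Egr1 without exercise 1, where 5.15% of all genes passed, and Egr1, Fosb and Fosl1 with library weights. With those weights 3 of the 10 genes passed in that comparison, where 19.2% of all genes did. In the test over the 4 groups 1 of the 10 passed with library weights, where 1626 of 11868 genes did. Leaving out 1 library gave 0 to 1 of the 10 in exercise against control. FPKM hold no depth, and 4 libraries a group leave wide intervals for Fos and Egr1.

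Counts over all genes moved more. For anti-PDL1 against control, 30 with all libraries, they were 8 without a filter, 77 with median centring, 117 with quantile normalization, 835 with library weights, 4 without controls 1 and 2, and 6 to 767 with single libraries left out. For exercise against control, 0 with all libraries, they were 2274 with library weights and 0 to 611 with single libraries left out. For exercise with anti-PDL1 against exercise, also 0, they were 2 with a mean of at least 5 FPKM, with median centring and with quantile normalization, 1 with only the groups compared, 222 with library weights, 5 without controls 1 and 2, and 0 to 184 with single libraries left out. The interaction gave 0 to 224 with single libraries left out. The test over the 4 groups, 16 with all libraries, gave 7 without a filter, 9 with plain limma settings, 37 with quantile normalization, 1626 with library weights, and 5 to 306 with single libraries left out. Controls 1 and 2 held the highest macrophage marker sums of all libraries, at 1481 and 1897 FPKM. They also held the highest endothelial marker sums, at 66.7 and 121 FPKM. Control 2, the highest library for Egr2, held 325 FPKM of skeletal muscle markers. The next highest library, exercise 3, held 13.3 FPKM of them. The part of these in the values was not tested, nor was the cause of the shifts.

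With the replicate number as a block, 15 genes passed for anti-PDL1 against control and 8 in the test over the 4 groups, and 0 of the 10 members passed in any comparison. Of 24 pairs of libraries with the same number, 6 had deviations from the group means correlated above 0.1, with a range of -0.62 to 0.34. Pairs with different numbers reached 0.44, for exercise 4 and exercise with anti-PDL1 library 1. Of 16 libraries 0 correlated best with their own number in all other groups. No pairing by number was seen in these values, but the labels do not say what the numbers stand for.

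Signs changed for 23 of the 60 log2 fold changes, none of which had passed. With single libraries left out, ranges that crossed 0 in exercise with anti-PDL1 against control were -0.10 to 0.45 for Fos, -0.02 to 0.28 for Egr2 and -0.23 to 0.01 for Nr4a1. In anti-PDL1 against control they were -0.05 to 0.14 for Fosl1, -0.02 to 0.18 for Ier2 and -0.12 to 0.02 for Nr4a1, and in exercise against control -0.25 to 0.01 for Junb, -0.16 to 0.13 for Egr2 and -0.13 to 0.01 for Nr4a1. In exercise with anti-PDL1 against anti-PDL1 they were -0.02 to 0.17 for Jun, -0.15 to 0.15 for Junb, -0.15 to 0.02 for Egr2, -0.07 to 0.13 for Ier2, -0.17 to 0.07 for Nr4a1 and -0.09 to 0.05 for Myc. In exercise with anti-PDL1 against exercise they were -0.25 to 0.12 for Jun, -0.74 to 0.07 for Egr1, -0.01 to 0.25 for Egr2 and -0.18 to 0.06 for Nr4a1. For the interaction they were -0.04 to 0.26 for Junb, -0.18 to 0.12 for Egr2 and -0.12 to 0.12 for Nr4a1. Without controls 1 and 2, signs turned for Fosb in exercise with anti-PDL1, at -0.04, Nr4a1 in anti-PDL1, at 0.07, and Junb, Egr2 and Nr4a1 in exercise, at 0.15, 0.22 and 0.08, each against control, and for Junb and Egr2 in the interaction, at -0.18 and -0.26. With library weights they turned for Egr2 in exercise against control, at 0.02, Ier2 in exercise with anti-PDL1 against anti-PDL1, at -0.07, and Junb and Egr2 in the interaction, at -0.03 and -0.12. Egr2 in the interaction was at -0.02 with median centring and with quantile normalization. The cause was not tested.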
